A study of Mus musculus with 12 samples.

Results

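The Krüppel-like factor (KLF) genes are described here in mouse osteoclast precursor cells given dexamethasone, a synthetic glucocorticoid. The members were 10 genes chosen by symbol, Klf2, Klf3, Klf4, Klf6, Klf7, Klf9, Klf10, Klf11, Klf13 and Klf16, of 28293 genes in the deposited table of raw read counts. Non-adherent marrow cells of wild-type male C57BL/6J mice aged 6 months were kept in 10 ng/ml M-CSF and then in M-CSF with 25 ng/ml RANKL, the cytokine that starts osteoclast formation. The RANKL+Dex group (6 libraries) had 25 ng/ml RANKL with 10 nM dexamethasone for 24 h, and the RANKL group (6 libraries) had the same RANKL and M-CSF without the steroid. The protocol does not say whether the 24 h of dexamethasone came with the first 24 h of RANKL or after it. A batch number from 1 to 6 in the labels is shared between the groups, so each batch holds 1 library of each. The cells are primary cultures measured at 1 dose and 1 time, and the labels call the 6 libraries of a group biological replicates without saying if each came from its own mouse. The p-values therefore reflect variation among these cultures, which may be technical in part.

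KLF proteins are transcription factors that bind GC-rich DNA and CACCC boxes through zinc fingers at the C-terminal end, and they are related to the SP factors. Their N-terminal parts differ and bring in different partners: Klf9, Klf10, Klf11, Klf13 and Klf16 recruit the corepressor Sin3a, Klf3 recruits CtBP corepressors, and Klf2, Klf4, Klf6 and Klf7 act mainly as activators. In myeloid cells Klf2 and Klf4 are known for restraining or redirecting inflammatory activation, and Klf9 is a known direct target of the glucocorticoid receptor.

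Library totals ran from 16820193 to 28523595 counts in RANKL+Dex and from 17674405 to 25451498 counts in RANKL. All 12 listed markers of the osteoclast lineage, which are not specific to precursors, were detected. Together they held 5.15% to 5.51% of counts in RANKL+Dex and 5.07% to 5.34% in RANKL (exact permutation adjusted p = 0.0556 over 11 measures). Of these 12 genes 5 rose and 1 fell in edgeR's test, beside 7.98% higher and 7.55% lower of all tested genes. Calcr, the calcitonin receptor gene, had the smallest p, at 272 ± 32.7 CPM in RANKL+Dex and 97.4 ± 7.90 CPM in RANKL. Mmp9, the most abundant, differed by −0.05 ± 0.04 on the log2 scale (edgeR adjusted p = 0.418). Summed marker shares of other cell types were small. Neutrophil markers (9 of 10 in the table; Ly6g had no row) held 0.000639% to 0.000996% of counts in RANKL+Dex and 0.00234% to 0.00367% in RANKL (exact permutation adjusted p = 0.00794). Dendritic cell markers (8 of 8) held 0.00247% to 0.00309% in RANKL+Dex and 0.00437% to 0.00721% in RANKL, and endothelial markers (8 of 8) 0.000214% to 0.000386% in RANKL+Dex and 0.000426% to 0.000606% in RANKL (exact permutation adjusted p = 0.00794 for each). Most of the dendritic cell share was Itgax, at 23.4 ± 2.36 CPM in RANKL+Dex and 52.8 ± 9.30 CPM in RANKL. Of the 3 tested genes of that list, Itgax was the 1 called, so its share describes mainly this gene. Markers of B cells, T and NK cells, erythroid cells and stromal cells held at most 0.00240% of counts in any library (exact permutation adjusted p of 0.0556 to 0.483). In a bulk sample, fewer cells of a type and less RNA per cell cannot be told apart.

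Promoters are shown so that the DNA before the start sites can be compared: those of Klf9, whose transcript changed most, of Klf13, a member of the same Sin3a-recruiting group with a small difference, and of Klf2, a target of the MEF2 factors. The sequences are from RefSeq (GRCm38.p6) and run 5′ to 3′, in the 250 bases before the RefSeq start, cut short for Klf2 where an annotated GENCODE transcript begins. Klf9 is on the plus strand at chr19:23140976-23141225, Klf13 on the minus strand at chr7:63938916-63939165 and Klf2 on the plus strand at chr8:72318812-72319032. Capitals mark matches, on either strand, to a CACCC box (CACCC), a GC box (GGGCGG) or a MEF2 box (CTA and TAG with 4 bases between them).
Klf9: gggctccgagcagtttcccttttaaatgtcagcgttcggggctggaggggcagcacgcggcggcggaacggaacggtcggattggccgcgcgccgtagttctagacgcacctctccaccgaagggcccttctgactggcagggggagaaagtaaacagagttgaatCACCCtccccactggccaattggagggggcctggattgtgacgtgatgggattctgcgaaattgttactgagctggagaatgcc
Klf13: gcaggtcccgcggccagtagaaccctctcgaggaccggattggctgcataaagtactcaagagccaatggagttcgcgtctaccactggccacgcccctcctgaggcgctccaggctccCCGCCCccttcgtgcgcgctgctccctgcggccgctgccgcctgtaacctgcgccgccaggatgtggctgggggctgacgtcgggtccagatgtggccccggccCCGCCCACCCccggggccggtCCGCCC
Klf2: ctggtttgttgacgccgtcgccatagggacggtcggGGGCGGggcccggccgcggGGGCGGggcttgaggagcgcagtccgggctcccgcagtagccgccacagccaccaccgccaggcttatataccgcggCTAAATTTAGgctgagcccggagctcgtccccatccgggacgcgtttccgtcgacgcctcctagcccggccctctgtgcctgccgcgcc

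The table of promoters held a window for 8 of the 10 members, and the 250 bases before the start were searched. A GC box was found in 7 of these 8 windows and in 32.7% of 32851 windows of all genes; Klf9 was the member without one. CACCC was present in 5 of 8 windows and in 52.0% of all windows, once in Klf9, 5 times in Klf3 and once in Klf2, in the stretch not printed. In Klf13 a CACCC match and a GC box overlap. The MEF2 box was present in Klf2 alone among the members, at position −118 from the start, and in 3.20% of all windows. Neither the core letters of the glucocorticoid response element (GNACA and TGTNC with 3 bases between them, in 0.387% of all windows) nor its stronger arm TGTTCT (in 16.1%) was present in any of the 8 windows, which says nothing of sites elsewhere. The windows of the members were rich in G and C, from 59.2% (Klf7) to 78.4% (Klf3), beside a median of 52.4% over all windows.

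**Figure D1:**
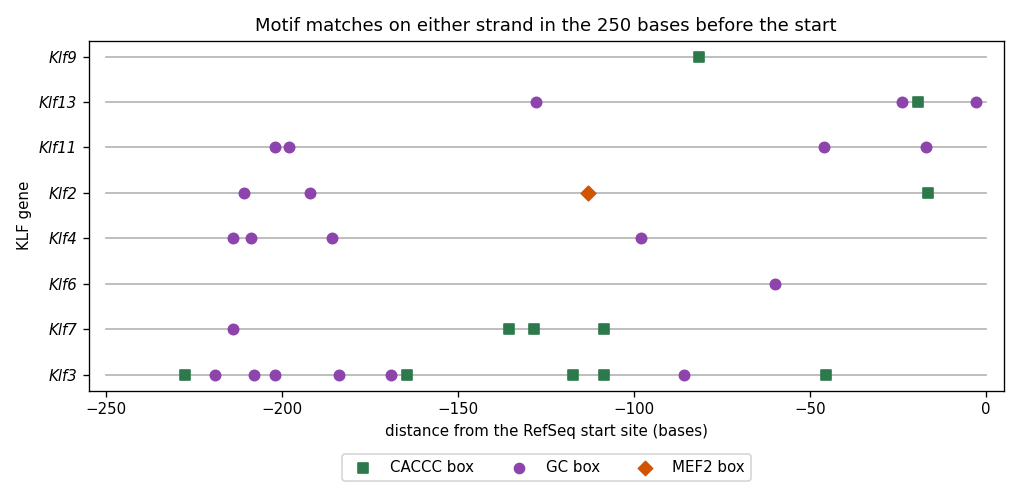
Motif matches in the 250 bases before the RefSeq start of 8 KLF genes, with the distance from the start in bases on the horizontal axis and 1 gene per row. Squares are CACCC boxes, circles GC boxes and the diamond the MEF2 box. Klf9 holds a single CACCC box and no GC box, and Klf2 holds the only MEF2 box.

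All 10 members passed the filter on low counts. Differences were tested with edgeR's quasi-likelihood test on all 13775 tested genes, with Benjamini-Hochberg adjustment over all of them, and a gene was called at an adjusted p under 0.05. Of the 10 members 1 rose (Klf9) and 2 fell (Klf7 and Klf10), 3 in all, beside 15.5% of all tested genes called in either direction, 7.98% higher and 7.55% lower. The median log2 fold change (RANKL+Dex over RANKL) was 0.06 over the members and −0.0034 over all tested genes. Levels are given as CPM, the count of a gene relative to the TMM-scaled total of its library. The groups did not overlap in CPM for 1 member, Klf9, beside 7.01% of tested genes. With the batch number as a block, 5 members were called, 3 higher and 2 lower, beside 21.8% of tested genes, the additional members being Klf6 and Klf13. Without RANKL+Dex replicate 5 the count was also 5 (3 higher), and without batch 4 it was 2, with 1 lower. With 10 members, these shares were not tested against those of all genes.

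**Figure D2:**
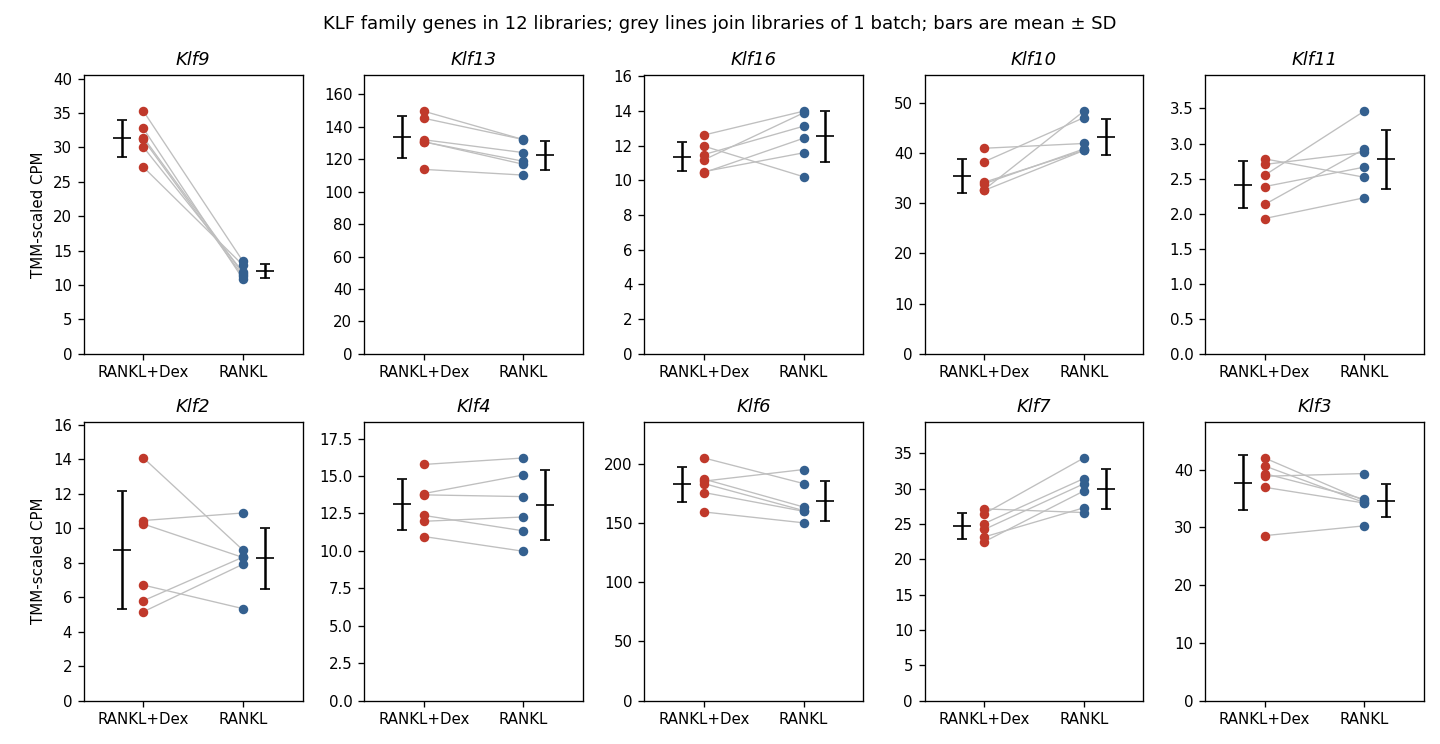
TMM-scaled CPM of the 10 KLF genes (vertical axes from 0), with the 6 RANKL+Dex libraries on the left and the 6 RANKL libraries on the right of each panel; grey lines join libraries of 1 batch and black bars are mean ± SD. Klf9 lies between 27.1 and 35.3 CPM in RANKL+Dex and between 10.9 and 13.5 CPM in RANKL, while the groups of the other 9 genes overlap.

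Among the members that recruit Sin3a, Klf9 showed by far the largest difference of the 10. Its product is a repressor known as a target of glucocorticoid and thyroid hormone signals. Klf9 was at 27.1 (lowest), 31.3 (median) and 35.3 CPM (highest) in RANKL+Dex, against 10.9, 11.8 and 13.5 CPM in RANKL. Every RANKL+Dex library was above every RANKL library. Its log2 fold change was 1.38 ± 0.07 (SE; edgeR adjusted p = 1.3e-09), with a mean of 31.3 ± 2.72 CPM in RANKL+Dex and 11.999 ± 0.987 CPM in RANKL (SD, n = 6 each). Within batches the log2 ratio ran from 1.07 (batch 5) to 1.59 (batch 2), and Klf9 ranked 4 by p among all tested genes. Its counts were between 458 and 920 in RANKL+Dex libraries and between 192 and 306 in RANKL libraries.

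Klf13, which encodes a regulator of chemokine transcription first described in T lymphocytes, was at 114, 131 and 149.7 CPM (lowest, median, highest) in RANKL+Dex, against 110.3, 121 and 132 CPM in RANKL. The ranges overlap over most of their width, but RANKL+Dex was above RANKL in 6 of 6 batches. Its fold change on the log2 scale was 0.13 ± 0.06 (edgeR adjusted p = 0.174), with a 95% interval from −0.0003 to 0.26. With the batch block Klf13 passed (0.13 ± 0.03, edgeR adjusted p = 0.0139), and it passed without RANKL+Dex replicate 5 (0.17, adjusted p = 0.0436), the library with the lowest value of that group.

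Klf16, a ubiquitous repressor, was at 10.4, 11.3 and 12.6 CPM in RANKL+Dex, against 10.2, 12.8 and 13.98 CPM in RANKL. The RANKL range spans that of RANKL+Dex. On the log2 scale the difference was −0.14 ± 0.08 (edgeR adjusted p = 0.290), with a 95% interval from −0.32 to 0.04, and RANKL+Dex was lower in 5 of 6 batches.

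Klf10 and Klf11, both named TGF-beta-inducible early genes, had negative fold changes, of which the one of Klf10 passed. Klf10, a gene with known roles in osteoclasts and osteoblasts, was at 32.6, 34.1 and 41.0 CPM in RANKL+Dex, against 40.5, 41.4 and 48.4 CPM in RANKL. The ranges overlap through 1 RANKL+Dex library, replicate 2 (41.0 CPM), which lay above 3 RANKL libraries, and RANKL+Dex was lower in 6 of 6 batches. Klf10 fell by 0.28 ± 0.07 on the log2 scale (SE; edgeR adjusted p = 0.00761), at 35.5 ± 3.41 CPM in RANKL+Dex and 43.2 ± 3.55 CPM in RANKL (SD, n = 6 each). Without batch 4, where its log2 ratio was −0.56, the call ended (log2 fold change −0.23, adjusted p = 0.0507). The smallest ratio, −0.0331, was that of batch 2.

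Klf11 was the least abundant member, with 34 to 67 counts per library in RANKL+Dex and 44 to 76 in RANKL. It was at 1.93, 2.47 and 2.78 CPM in RANKL+Dex, against 2.23, 2.77 and 3.46 CPM in RANKL, and the ranges overlap. The log2 fold change was −0.21 ± 0.14 (edgeR adjusted p = 0.356), and its 95% interval, from −0.51 to 0.09, includes the value found for Klf10.

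Among the activators, Klf7 fell and Klf6, Klf2 and Klf4 did not pass the test. Klf7, best known for its part in neuron development, was at 22.5, 24.6 and 27.1 CPM in RANKL+Dex, against 26.6, 30.2 and 34.3 CPM in RANKL. The groups overlap through batch 4, in which RANKL+Dex was at 27.1 CPM and RANKL at 26.6 CPM, while RANKL+Dex was lower in the other 5 batches. Its log2 fold change was −0.27 ± 0.07 (edgeR adjusted p = 0.00979), with means of 24.8 ± 1.82 CPM in RANKL+Dex and 30.0 ± 2.84 CPM in RANKL (SD, n = 6 each). The call held in each of 23 alternative settings, with an adjusted p of at most 0.0496.

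Klf6, the closest relative of Klf7 and an early-response gene of macrophages, was the most abundant member. Its level was 159, 184 and 205 CPM in RANKL+Dex, against 150.1, 162 and 195 CPM in RANKL. The ranges overlap, and RANKL+Dex was higher in 5 of 6 batches. Klf6 had a log2 fold change of 0.11 ± 0.06 (edgeR test, adjusted p = 0.257; 95% interval −0.02 to 0.25), and with the batch block it was 0.12 ± 0.04 (adjusted p = 0.0400). As a ratio of levels per kb of exon, Klf7 to Klf6 ran from 0.0691 to 0.0785 in RANKL+Dex and from 0.0870 to 0.103 in RANKL. The ratio Klf10 to Klf11 overlapped, with 12.8 to 17.8 in RANKL+Dex and 12.2 to 22.6 in RANKL. So did Klf2 to Klf4, with 0.687 to 1.47 in RANKL+Dex and 0.882 to 1.19 in RANKL. The ratios of Klf9 to Klf10, Klf13 and Klf16 did not overlap, but they mainly restate the separate levels of Klf9 and are no further result.

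Klf2, which restrains activation of monocytes and endothelium, varied more than any other member in RANKL+Dex. Its level was 5.15, 8.46 and 14.1 CPM in RANKL+Dex, against 5.33, 8.30 and 10.9 CPM in RANKL. Its coefficient of variation was 39.4% in RANKL+Dex and 21.6% in RANKL, beside 7.35% to 13.8% and 7.17% to 17.9% for the other 9 genes. Within batches the log2 ratio ran from −0.62 (batch 6) to 0.69 (batch 2), with 3 batches of each sign. Klf2 had a log2 fold change of 0.10 ± 0.21 (edgeR test, adjusted p = 0.802; 95% interval −0.35 to 0.56). Its sign changed without RANKL+Dex replicate 2 (−0.09) and without batch 2 (−0.08).

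Klf4, a factor of monocyte differentiation and alternative activation, was at 10.96, 13.1 and 15.8 CPM in RANKL+Dex, against 9.97, 12.9 and 16.2 CPM in RANKL. The groups cover the same range. The log2 fold change was 0.01 ± 0.11 (edgeR adjusted p = 0.970), with a 95% interval from −0.23 to 0.25.

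Klf3, the CtBP-recruiting repressor among the members, was at 28.6, 39.1 and 42.0 CPM in RANKL+Dex, against 30.2, 34.4 and 39.3 CPM in RANKL. One RANKL+Dex library, replicate 5, was below every RANKL library, and RANKL+Dex was higher in 4 of 6 batches. Klf3 had a log2 fold change of 0.13 ± 0.08 (edgeR test, adjusted p = 0.320; 95% interval −0.04 to 0.29). It passed at 0.19 (adjusted p = 0.0383) when RANKL+Dex replicate 5 was left out.

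**Figure D3:**
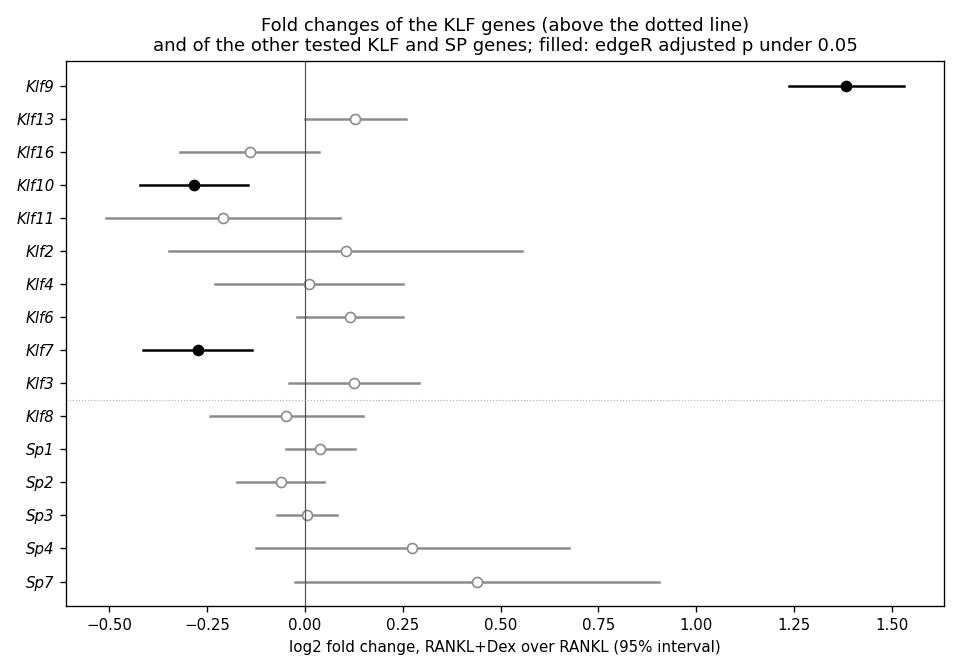
Log2 fold change of RANKL+Dex over RANKL (horizontal axis) with its 95% interval for the 10 KLF genes and, under the dotted line, Klf8 and 5 SP genes. Filled points passed edgeR's test at an adjusted p under 0.05. Klf9 stands at 1.38, Klf7 and Klf10 at −0.27 and −0.28, and the intervals of the others include 0.

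Per kb of exon (union of exons in GENCODE M21), the family was led by Klf6 with 41.6 ± 3.40 CPM per kb in RANKL+Dex and 38.4 ± 3.85 in RANKL (SD, n = 6 each). Klf13 came next with 17.8 ± 1.69 CPM per kb in RANKL+Dex and 16.3 ± 1.17 in RANKL, then Klf10 with 8.48 ± 0.816 CPM per kb in RANKL+Dex and 10.3 ± 0.850 in RANKL. These neighbours were separated from each other in both groups by more than their ranges. Klf9 took place 4 in RANKL+Dex, at 6.50 ± 0.564 CPM per kb, and place 9 in RANKL, at 2.49 ± 0.205. Its range overlapped that of Klf2, the next lower gene, in RANKL+Dex, and that of Klf3, the next higher one, in RANKL. Among the 10 members' summed levels per kb, Klf9 held 6.87% in RANKL+Dex and 2.82% in RANKL, and Klf6 held 44.0% in RANKL+Dex and 43.5% in RANKL. Klf2, Klf4 and Klf16 lay between 4.25 and 4.72 CPM per kb in RANKL+Dex and between 4.29 and 4.69 in RANKL, with ranges that overlap in both groups. Klf3 and Klf7 overlapped too, at 3.35 ± 0.427 and 3.04 ± 0.224 in RANKL+Dex and at 3.08 ± 0.256 and 3.69 ± 0.349 in RANKL. Klf11 was last, at 0.556 ± 0.0765 CPM per kb in RANKL+Dex and 0.640 ± 0.0968 in RANKL. Since the exon union counts all annotated isoforms, a level per kb is lower where the cells use a short isoform.

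**Figure D4:**
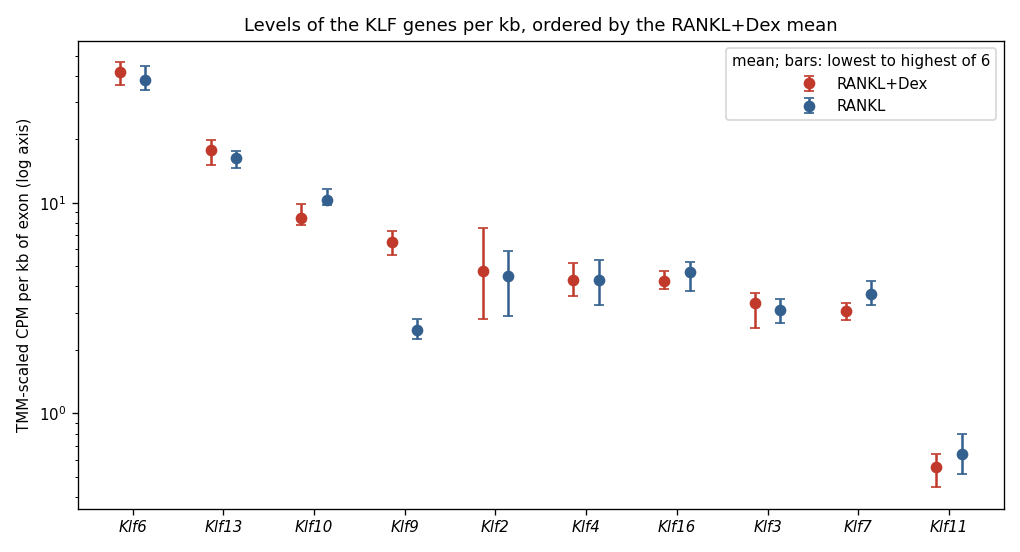
Mean TMM-scaled CPM per kb of exon (log axis) of the 10 KLF genes in RANKL+Dex (left point of each pair) and RANKL (right point), ordered by the RANKL+Dex mean; bars run from the lowest to the highest of 6 libraries. Klf9 changes place most, with 6.50 CPM per kb in RANKL+Dex (place 4) and 2.49 in RANKL (place 9).

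After the group means were removed, which takes out the treatment, many members varied together across the 12 libraries. Of 45 pairs of members, 18 had a Pearson's r over 0.5, as a description with no test. The share of such pairs among all tested genes was not computed, so the count cannot be read as a trait of the family. The highest was that of Klf6 and Klf13 (r = 0.88, Spearman's rho = 0.77, n = 12, and r = 0.86 without the 2 libraries farthest from the median of Klf6). Klf4 and Klf6 had r = 0.87 (rho = 0.82, and 0.84 without 2 libraries), and Klf2 and Klf4 r = 0.77 (rho = 0.81, and 0.79 without 2). Other pairs depended more on 2 libraries. Without 2, r went from 0.79 to 0.37 for Klf3 and Klf13 and from 0.57 to 0.08 for Klf3 and Klf4. For Klf13 and Klf16 it went up, from 0.50 to 0.93. Klf9 and Klf11 differed from this: all 12 pairs with an r below 0 held one of them, and their highest r with any member was 0.40 and 0.13. Klf11 had only 34 to 76 counts per library, and the part of counting noise in its r was not tested. Without 2 libraries the r of Klf11 with Klf3, Klf4 and Klf10 turned positive (0.06, 0.23 and 0.26). With Klf2, Klf6, Klf7 and Klf13 it stayed below 0. The r of Klf4 and Klf9 turned positive too (0.07). Library replicate 2 of RANKL+Dex had the highest value of its group for 5 members and replicate 5 the lowest for 6, while in RANKL replicate 1 was highest for 5 and replicate 5 lowest for 7. RANKL+Dex replicate 2 and RANKL replicate 1 were also the deepest libraries of their groups. With log2 library total, centred the same way, the r was 0.71 for Klf2, 0.65 for Klf10, 0.37 for Klf13 and 0.10 for Klf9 (rho = 0.68, 0.55, 0.27 and 0.08). Without the 2 libraries farthest from the median depth it was 0.42, 0.28, −0.11 and −0.03, so the values of Klf2, Klf10 and Klf13 rest in large part on those libraries. Klf6 likewise had 0.51 with all libraries and −0.02 without those 2, while Klf16 went the other way, with −0.23 with all libraries and −0.59 without them. For Klf3, Klf4, Klf7 and Klf11 the r with depth was between −0.04 and 0.45 with all libraries and between −0.26 and 0.07 without those 2.

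Immediate-early genes such as Fos, Jun and Egr1, which respond within minutes to handling of cells, moved with several members across libraries. Their summed level, centred the same way, had an r of 0.75 with Klf13 (rho = 0.81), 0.70 with Klf2 (rho = 0.59) and 0.69 with Klf10 (rho = 0.57), against 0.10 with Klf9 (rho = 0.18; n = 12). Without the 2 farthest libraries the r was 0.71, 0.69, 0.60 and 0.36. Of the 9 tested genes of that list 0 rose and 2 fell, Atf3 (log2 fold change −0.82 ± 0.12, edgeR adjusted p = 1.95e-04) and Fos (−0.43 ± 0.11, adjusted p = 0.0137). Of all tested genes 7.98% were higher and 7.55% lower. With the batch block 2 of the 9 were higher and 2 lower, beside 21.8% of all tested genes called. The list held 0.0600% to 0.0825% of counts in RANKL+Dex and 0.0708% to 0.0899% in RANKL (exact permutation adjusted p = 0.175). Their part in the fold changes of the KLF genes was not tested.

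**Figure D5:**
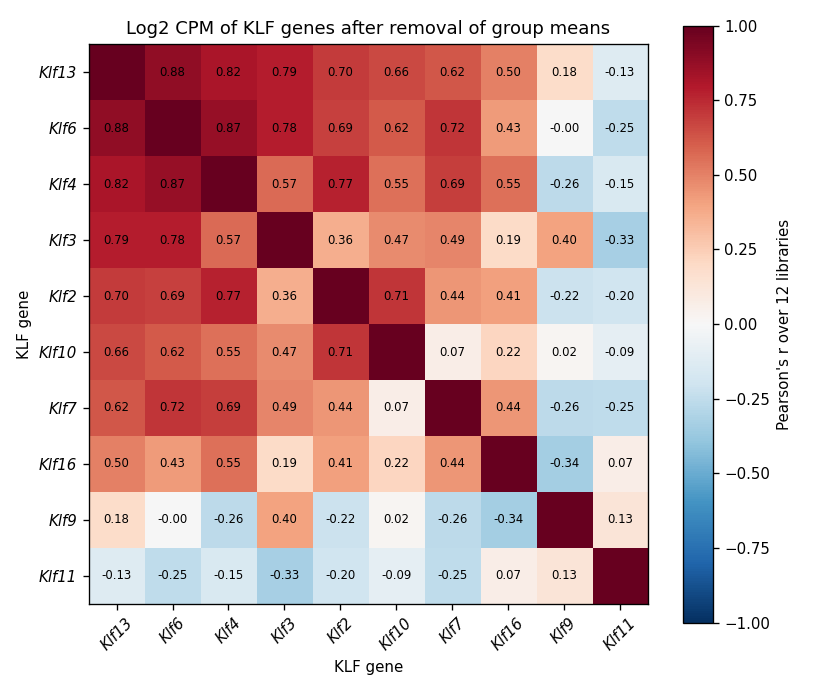
Pearson's r between KLF genes over 12 libraries, from log2 CPM after removal of the group means; red is positive, blue negative. Every pair without Klf9 or Klf11 has a positive value, and the 2 last rows, Klf9 and Klf11, hold all the negative ones.

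By a rule on the same centred values, the 3 genes most like each of the 3 called members were named among 9324 genes with a mean of at least 5 CPM. For Klf9 they were Srsf10 (r = 0.88, rho = 0.88), Ppat (r = 0.88, rho = 0.90) and Rasa2 (r = 0.85, rho = 0.76). For Klf10 they were Lsm14a (r = 0.90, rho = 0.90), Mon1a (r = 0.86, rho = 0.61) and Scarb2 (r = 0.85, rho = 0.98), and for Klf7 Luzp1 (r = 0.86, rho = 0.86), Adgrg1 (r = 0.86, rho = 0.90) and Usp28 (r = 0.85, rho = 0.85). With n = 12 libraries and this many genes, values of this size describe the libraries only, and none of the 9 genes was called between the groups.

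The rest of the KLF family was sparse in these cells. Klf8, a relative of Klf3, was the 1 tested gene of 7 listed, at 8.36 ± 0.993 CPM in RANKL+Dex and 8.66 ± 0.825 CPM in RANKL (SD, n = 6 each; log2 fold change −0.05 ± 0.09, edgeR adjusted p = 0.791). Klf5, an epithelial and smooth muscle factor, did not pass the filter; it had 25 counts summed over RANKL+Dex and 47 summed over RANKL (exact two-sided permutation p = 0.0108 on CPM, not adjusted). Klf1, the erythroid factor, had 14 counts in RANKL+Dex and 26 in RANKL, in a table where the erythroid markers held at most 0.000136% of counts in any library. Klf12, Klf15 and Klf17 had between 0 and 3 counts in either group. Among the SP factors, 5 of 9 were tested and 0 were called by edgeR or DESeq2 (0 at an unadjusted p under 0.05 with either). Sp3 and Sp1, ubiquitous activators of GC box promoters, were at 92.4 ± 3.06 and 88.0 ± 5.14 CPM in RANKL+Dex and at 92.1 ± 3.21 and 85.7 ± 2.76 CPM in RANKL, with 95% intervals of the log2 fold change from −0.07 to 0.08 and from −0.05 to 0.13.

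Partners and regulators of the family were taken from fixed lists. Beside the list counts that follow, 15.5% of all tested genes were called, 7.98% higher and 7.55% lower, and 21.8% were called with the block. No list was tested against these shares. Of 15 cofactors bound by KLF proteins, 0 rose and 2 fell, with a median log2 fold change of −0.06. Sin3a, the corepressor used by Klf9 and its group, fell by 0.14 ± 0.04 on the log2 scale (edgeR test, adjusted p = 0.0303), at 39.4 ± 1.46 CPM in RANKL+Dex and 43.4 ± 1.82 CPM in RANKL. The acetyltransferase gene Ep300 fell as well (−0.15 ± 0.05, adjusted p = 0.0399). Both calls were close to the threshold: each ended in 13 of 23 alternative settings, with adjusted p up to 0.111 and 0.155. Kat2b, another acetyltransferase gene, had 0.13 ± 0.05 (adjusted p = 0.0613, and 0.0298 with the batch block). With the block 2 of the list rose and 3 fell. Ctbp1, the abundant partner of Klf3, was at 222 CPM in both groups, with a log2 fold change of −0.00115 (adjusted p = 0.988; named after its values were seen).

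In the list for the axis of MEK5, ERK5 and MEF2 factors, which drives Klf2 and Klf4, 0 of 11 genes rose and 2 fell (0 and 4 with the block), with a median of −0.06. The list also holds the deacetylase genes Hdac4, Hdac5, Hdac7 and Hdac9, so its count and median give no direction for the axis. Hdac9, which encodes a deacetylase that represses MEF2, fell to 1.26 ± 0.647 CPM in RANKL+Dex, against 2.89 ± 0.540 CPM in RANKL (log2 fold change −1.23 ± 0.27, edgeR adjusted p = 0.00509). Mef2c fell to 6.75 ± 1.22 CPM in RANKL+Dex, against 8.70 ± 0.685 CPM in RANKL (−0.36 ± 0.11, adjusted p = 0.0373), a call that ended in 12 of 23 settings (adjusted p up to 0.127). Hdac5 and Mef2d had −0.17 ± 0.06 and −0.15 ± 0.06 (adjusted p = 0.0631 and 0.0853, and 0.0182 and 0.0419 with the block). Klf2, whose promoter above holds the MEF2 box, and Klf4 were not called under any of the 23 settings.

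Around TGF-beta, which induces Klf10 and Klf11, 1 of 11 tested genes rose and 2 fell (2 and 3 with the block), with a median of −0.07. The receptor gene Tgfbr1 rose to 758 ± 24.4 CPM in RANKL+Dex, against 562 ± 34.7 CPM in RANKL (0.43 ± 0.04, edgeR adjusted p = 1.5e-06). The corepressor gene Ski fell (−0.18 ± 0.04, adjusted p = 0.00853), as did the ligand gene Tgfb1 (−0.28 ± 0.03, adjusted p = 1.0e-05). The inhibitor gene Smad7 was at 17.7 ± 1.48 CPM in RANKL+Dex and 20.5 ± 2.05 CPM in RANKL (adjusted p = 0.0636, and 0.0416 with the block). Among 10 ubiquitin ligases of KLF proteins 1 rose and 1 fell, with a median of 0.05. Fbxw7, which marks several KLF proteins for degradation, rose to 19.5 ± 1.16 CPM in RANKL+Dex, against 16.0 ± 0.905 CPM in RANKL (0.29 ± 0.06, adjusted p = 0.00374), and was higher in 6 of 6 batches. Smurf1 fell (−0.14 ± 0.03, adjusted p = 0.0125), but leaving out batch 3, 4 or 6 ended the call (adjusted p = 0.0670, 0.0530 and 0.0606). Siah1b and Smurf2 had 0.21 ± 0.11 and 0.06 ± 0.05 (adjusted p = 0.214 and 0.497).

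Genes reported in other systems as targets of KLF2, KLF4 or KLF6 went both ways: of 14 tested 2 rose and 3 fell, with a median of −0.03. With the block 2 rose and 4 fell, the additional gene being Hif1a (adjusted p = 0.0983, and 0.0113 with the block; named after its values were seen). The chemokine receptor gene Ccr2 fell to 1.505 ± 0.426 CPM in RANKL+Dex, against 3.74 ± 0.845 CPM in RANKL (−1.31 ± 0.19, edgeR adjusted p = 1.5e-04). S1pr1, a sphingosine phosphate receptor gene that KLF2 activates in T cells, fell to 2.93 ± 1.12 CPM in RANKL+Dex, against 5.90 ± 2.18 CPM in RANKL (−0.98 ± 0.25, adjusted p = 0.0154, and 0.0670 without batch 3). The cell cycle inhibitor gene Cdkn1a rose (0.45 ± 0.07, adjusted p = 5.84e-04), and so did the integrin gene Itgb7 (0.30 ± 0.08, adjusted p = 0.0162, and 0.0607 without batch 1). Pecam1, an adhesion molecule gene that is also on the endothelial list, fell (−0.70, adjusted p = 0.0292; named after its values were seen). Ccr2 and S1pr1 are also expressed by other leukocytes. The falls of the neutrophil, dendritic cell (mostly Itgax) and endothelial marker shares given above went with those of Ccr2 and S1pr1. The part of these shares was not tested.

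Of genes reported as targets of KLF3, KLF9, KLF10 or KLF11, 9 were tested, of which 4 rose and 1 fell, with a median of 0.15. With the block 5 rose and 2 fell, the additional ones being the clock gene Arntl (adjusted p = 0.0783, and 0.0201 with the block; named after its values were seen) and Smad7. Per1, a clock gene that the glucocorticoid receptor also drives, rose to 52.2 ± 4.82 CPM in RANKL+Dex, against 20.2 ± 1.16 CPM in RANKL (1.37 ± 0.06, edgeR adjusted p = 4.7e-10). Tsc22d3 (0.93 ± 0.08, adjusted p = 4.0e-07) and Cdkn1a, which is in both lists, rose too, and Myc fell (−0.34 ± 0.06, adjusted p = 5.4e-04). Nfatc1, the gene of the master regulator of osteoclast formation, rose by 0.15 (adjusted p = 0.0273; named after its values were seen). Per1 and Tsc22d3 are themselves classical receptor targets, and in that list 4 of 13 genes rose and 1 fell, the kinase gene Sgk1 (−0.50, adjusted p = 0.0497; named after its values were seen), or 6 and 2 with the block. The log2 fold change of Klf9, 1.38 ± 0.07, lay beside those of Per1, 1.37 ± 0.06, and Fkbp5, 1.46 ± 0.09, the largest of that list. It was above that of the metallothionein gene Mt1, 0.37 ± 0.06. The median of the 13 genes was 0.21, and 8 of them were not called.

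The members lie on 10 chromosomes in GRCm39. Klf9 (ENSMUSG00000033863) lies on the plus strand of chromosome 19, at 23118590 to 23145498, Klf7 (ENSMUSG00000025959) chromosome 1 from 64068606 to 64161441 on the minus strand, and Klf10 (ENSMUSG00000037465) chromosome 15 from 38291707 to 38300950 on the minus strand. Other genes of the table overlap the spans of Klf3, Klf7, Klf9 and Klf13, and none of these had more than 22 counts in a library. How reads that lie in 2 genes were counted is unknown, and the number of shared reads was not measured. The protocols state no strand marking.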

How the data were processed

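Poly(A) RNA of 12 cultures was sequenced in paired-end reads with a NEBNext Ultra kit, per the labels' protocols. The authors deposited unnormalized whole-number counts for 28293 Ensembl genes. The submitters' processing notes name GRCm39 with HISAT2 2.1.0, FastQC 0.11.5, DESeq 1.28.0 and StringTie 1.3.3b, without roles. The program that assigned reads to genes and its treatment of strand and multiple matches were not given in the sources used here.

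Genes were filtered with filterByExpr (minimum count 10, minimum total 15; 13775 tested) and compared with edgeR 4.0.16 (TMM, quasi-likelihood test, two-sided, R 4.3.3). The SE of a log2 fold change was derived from the F statistic. CPM were computed from the counts. For marker shares an exact permutation test was used (two-sided; 924 arrangements, smallest p 0.00216). The script was checked on simulated data. Precision is limited by counts: members had 34 to 5755 per library. Between libraries of 1 group the chi-square per gene was 3.20 to 19.5, above counting noise, so none was deposited more than once within its group. This measure does not cover pairs of libraries from different groups.

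Members and lists were chosen with earlier results of these data known. Named were all 10 members, called genes of the family lists, up to 4 genes with the smallest p of each pathway list, the most abundant and smallest-p gene of the marker lists (some not printed), and 3 genes most like each of 3 members. Of the pathway genes, 1 named by this rule is not reported here. The batch number in the labels pairs the libraries; deviations from group means of same-numbered libraries correlated at 0.165 on average (0.04 to 0.36 over the 6 numbers), and those of differently numbered ones at −0.0329. With 1 library of each group in a batch, within-batch values carry no test. Results are without the block, whose value is printed where it changes the call of a member or the counts of a pathway or immediate-early list. Alternatives were RLE size factors, DESeq2 1.42.0, no filter, 1 CPM in 6 libraries, the block, and leaving out each library or batch. Promoters and exon lengths are from GRCm38 annotation (RefSeq and GENCODE M21), used for sequence and length only.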

Additional observations from a re-analysis of the deposited data

Results flagged for a closer look

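Among 70 groups of 6 libraries, those of the 10 KLF genes and of the genes named from the pathway lists, 1 held a library far from the others, where chance gives about 1 in 20. Ccr2, a reported KLF target, was at 5.36 CPM in RANKL replicate 4, while the nearest library was at 3.80 CPM and the lowest at 2.89 CPM; the gap was 0.631 of the range of the group. No KLF gene had such a library, but Klf3 came close to the limit in RANKL+Dex replicate 5. Klf3 was at 28.6 CPM in that library, while the nearest RANKL+Dex library was at 36.9 CPM and the highest at 42.0 CPM. Leaving out RANKL+Dex replicate 5 made Klf3 pass (log2 fold change 0.19, edgeR adjusted p = 0.0383).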

How the results depend on the processing

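Over 23 alternative settings Klf9 (log2 fold changes of 1.35 to 1.44) and Klf7 (−0.33 to −0.23) kept their calls, and Klf10 (−0.34 to −0.23) kept its own in 22. With the replicate block, Klf6 (0.12) and Klf13 (0.13) were called as well, for 5 members called and 3 higher; Klf7 and Klf10 stayed called. Leaving out libraries or batches gave 2 to 5 members called, 1 to 3 higher and 1 to 2 lower, and 1339 (without batch 4) to 2493 genes called across the table (2139 with all libraries, 1409 without batch 6). The leave-out ranges were 0.089 to 0.19 for Klf3, 0.094 to 0.17 for Klf13 and 0.08 to 0.16 for Klf6. Klf2, Klf4, Klf11 and Klf16 were called in none of the 23. No called member or called gene named from the pathway lists changed sign in the settings run. Among uncalled members, leave-out values ran from −0.09 to 0.21 for Klf2 and from −0.06 to 0.08 for Klf4, so the sign of either is not settled. The causes were not tested. Precision was lowest for Klf2 (SE 0.21) and Klf11 (SE 0.14, with 34 to 76 counts per library).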
